A study of Mus musculus with 6 samples.

Results

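The genes described here act in the cleavage of dietary carotene, the handling of vitamin A and the response to it in the gut wall. They are Bcmo1 (also written Bco1), Isx, Rbp2, Lrat, Retsat, Aldh1a1, Dhrs3, Rara, Rarb and Cyp26b1, 10 of the 23420 genes in the count table. They were picked by name with their counts in these ob/ob and WT libraries already known, so their own differences between the groups are given as a description, without a test. All 10 passed the filter on low counts, which asked for more than 1 CPM (reads of a gene scaled to a common library total, with TMM, the trimmed mean of M values, for composition in all levels printed) in at least 3 libraries.

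RNA of whole proximal jejunum, a washed 1 cm piece, was sequenced from ob/ob mice, which lack leptin and overeat, and from C57BL/6J wild type (WT) mice. Each group had 3 libraries, each pooling the RNA of 2 jejuna, so every spread given below is a spread between pools. Both kinds of mice were bought from a supplier, the WT mice are not described as littermates of the ob/ob mice, and the study's methods give a 5 h fast before sacrifice. The study's methods describe mice of a mainly C57BL/6J background, male unless stated otherwise. The sources used here do not give the age of the mice behind these libraries.

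Enterocytes take up carotenoids from the lumen and cleave beta-carotene in the middle with the enzyme encoded by Bcmo1. The retinal formed is reduced to retinol, which is held by the binding protein Rbp2 and esterified by Lrat for export in chylomicrons, while a small part is oxidised to retinoic acid. Retinoic acid acts through receptors of the RAR and RXR families, and in the gut it is known to induce Isx, a homeobox factor that represses Bcmo1 and the carotenoid receptor Scarb1, which closes a feedback loop on vitamin A production.

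The largest differences in level among the 10 genes were in Bcmo1, for carotene cleavage, and in Lrat, for retinol esterification. Bcmo1 was 2.76-fold lower and Lrat 1.61-fold lower in ob/ob than in WT jejuna on the group means. Dhrs3 was 1.33-fold lower and Rara 1.27-fold lower. Isx was 1.19 times the WT mean in ob/ob jejuna, with no overlap between the groups, while Rbp2 and Retsat lay close to their WT levels. The plot of CPM by library shows all 10 genes.

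**Figure D1:**
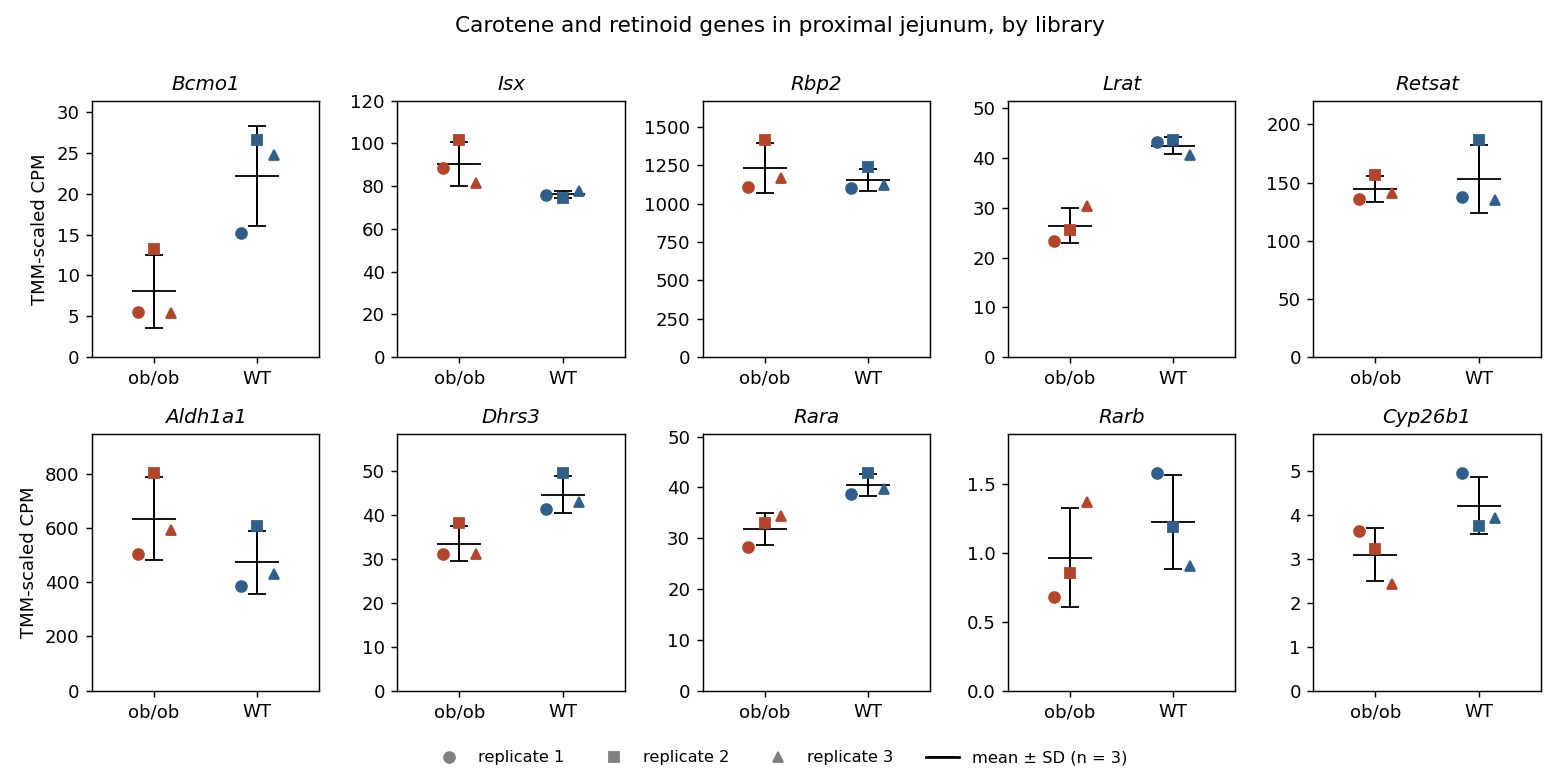
Level of each of the 10 genes in every library, as TMM-scaled CPM (vertical axes, each starting at 0), for ob/ob (left, red) and WT (right, blue). Points are libraries, the horizontal bar and whiskers are the mean ± SD (n = 3). The ob/ob points of Bcmo1, Lrat, Dhrs3, Rara and Cyp26b1 all lie below the WT points, and those of Isx all lie above them.

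The libraries held 14661981 to 18286080 counted reads, so that 3 reads were worth 0.159 to 0.198 CPM. Across 13168 genes tested with edgeR's quasi-likelihood test, 495 were higher (3.76%) and 251 lower (1.91%) in ob/ob at an adjusted p under 0.05. Groups did not overlap at all for 2085 genes that were higher (15.8%) and 2129 that were lower (16.2%) in ob/ob. Against these shares, 4 of the 10 retinoid genes were past the threshold on the lower side and 0 on the higher side, and 5 were lower and 1 higher without overlap. The median log2 fold change was -0.34 over the 10 genes, against -0.01 over all genes tested. Since the genes were picked with this contrast known, nothing is read from these counts. The count of 4 fell to 1 (Lrat) without ob/ob library 1, ob/ob library 3, WT library 2 or WT library 3, was 3 when ob/ob library 2 or WT library 1 was left out, and was 0 when WT libraries 1 and 2 both were.

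The tissue label was checked against markers. Enterocyte genes were abundant in every library, with a summed level of 54522 to 61052 CPM over 8 markers in ob/ob against 42876 to 50347 CPM in WT, and 6 pan-epithelial markers summed to 11461 to 12263 CPM in ob/ob against 9094 to 10160 CPM in WT. Of 6 pan-epithelial markers 1 rose (Krt20), of 8 enterocyte markers 2 (Alpi and Fabp2) and of 6 villus tip markers 3 (Ada, Nt5e and Slc28a2), and none of these lists had a member that fell. Markers of several other cell types had lower sums in ob/ob. These were 317 to 377 CPM in ob/ob against 398 to 421 CPM in WT for 6 fibroblast markers, 47.7 to 53.9 CPM against 62.3 to 68.9 CPM for 5 endothelial markers, and 6.12 to 9.90 CPM against 12.1 to 72.2 CPM for 5 B cell markers, where WT library 1 was highest. Fat cell markers summed to 93.3 to 102 CPM in ob/ob against 101 to 312 CPM in WT, with WT library 2 highest. Outside that library most of each sum was Cidec, at 91.2 ± 6.12 CPM in ob/ob against 75.1 ± 9.36 CPM in WT (SD, n = 3 each). Of the 6 fat cell markers tested, 5 were lower in ob/ob without overlap, and the median log2 fold change was -4.18. The defining marker Adipoq had 17, 0 and 14 reads in ob/ob against 77, 407 and 51 reads in WT. Of these lists, 0 of 6 fibroblast, 1 of 5 endothelial, 3 of 4 B cell and 2 of 6 fat cell markers tested fell, and 0 rose. The sums of 5 smooth muscle markers and of 6 macrophage and dendritic cell markers overlapped between the groups. Of the 5 exocrine pancreas markers 4 were at 0 in all libraries. Along the gut, 6 proximal small intestine markers summed to 6386 to 8033 CPM in ob/ob against 6351 to 7838 CPM in WT, with a median log2 fold change of -0.08, where Ada rose and 4 of 6 values were negative. The sums of 5 distal markers were 403 to 477 CPM in ob/ob against 403 to 498 CPM in WT, with a median of 0.37 over 4 tested, where Slc51b rose (0.49 ± 0.11 on the log2 scale, SE) and Fabp6 had 1 to 3 reads in each library. The part of these cell types in the retinoid gene values was not tested.

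Levels between genes were compared per kilobase of exon. The plot of these levels spans Rbp2 at the top, with 1280 ± 169 CPM per kb in ob/ob, against 1200 ± 76.3 CPM per kb in WT (SD, n = 3 each), and Rarb at the bottom, with 0.183 ± 0.0682 CPM per kb in ob/ob, against 0.232 ± 0.0642 CPM per kb in WT. Aldh1a1 came next to Rbp2, at 77.9 to 162 CPM per kb over the 6 libraries. Isx (41.6 to 56.7 CPM per kb) and Retsat (38.1 to 52.9 CPM per kb) had overlapping ranges and are not separated in the order. Dhrs3 followed at 10.6 to 16.9 CPM per kb. Rara (6.49 to 9.81), Lrat (4.37 to 8.16) and Bcmo1 (2.13 to 10.5 CPM per kb) overlapped each other, and Cyp26b1 lay at 0.455 to 0.925 CPM per kb. In these jejuna, the vitamin A carrier was thus far more abundant as RNA than the cleavage enzyme or the receptors.

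**Figure D2:**
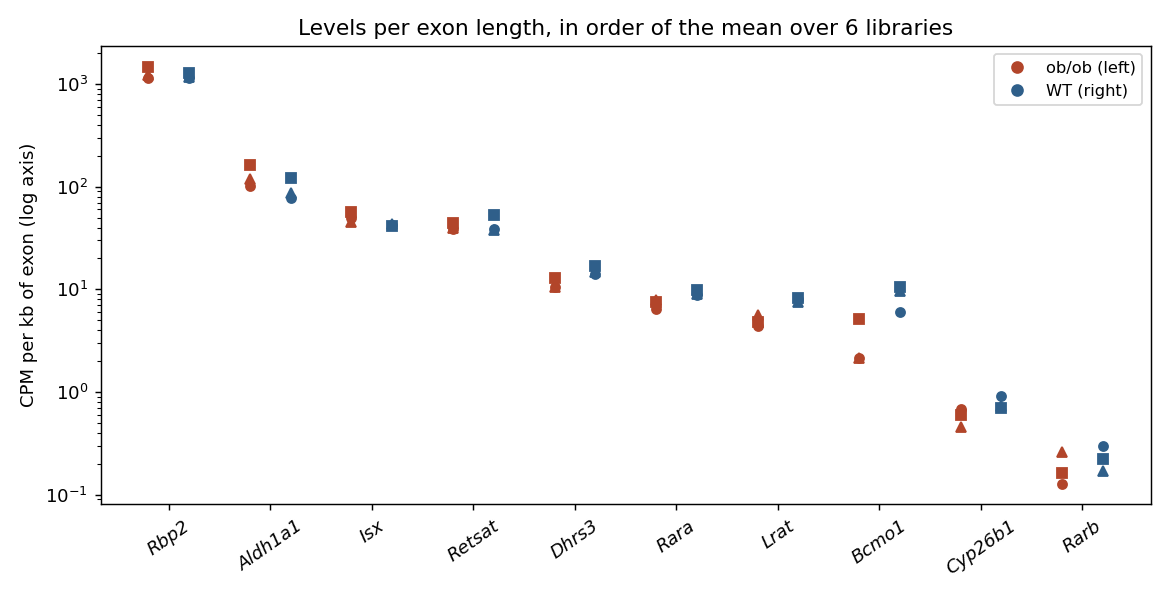
Level of the 10 genes in CPM per kilobase of exon (vertical log axis), ordered by the mean over 6 libraries, with ob/ob points on the left (red) and WT points on the right (blue) of each gene. Rbp2 is near 1000 CPM per kb and Rarb below 1 CPM per kb, and the points of Bcmo1 and Lrat overlap in both groups.

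Bcmo1 encodes the enzyme that splits beta-carotene into retinal, and the gene lies at chr8:117095854-117133720 on the plus strand of GRCm38 (GENCODE M21, where it is named Bco1). Its level was 5.47, 13.2 and 5.41 CPM in ob/ob libraries 1 to 3, against 15.2, 26.6 and 24.7 CPM in the WT libraries, from 89, 218 and 91 reads and 270, 404 and 465 reads. The highest ob/ob library stayed below the lowest WT library, by a margin smaller than the spread within either group. The log2 fold change was -1.46 ± 0.34 (SE), and it ranged from -2.02 without ob/ob library 2 to -1.24 without ob/ob library 3 when single libraries were left out. In bulk tissue, fewer cells that carry a transcript and less of it per cell cannot be told apart, here and for all genes below.

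The promoter of Bcmo1 is shown because it holds a pair of receptor hexamers that few promoters hold. RefSeq promoter windows (GRCm38.p6, 250 bases before to 50 after the start) were found for 10 of the 10 genes, as 16 windows, and were searched on both strands for direct repeats of the receptor hexamers AGGTCA or AGTTCA, or their variants GGGTCA or GGTTCA, spaced by 1, 2 or 5 bases (DR1, DR2 and DR5). A DR1 is the spacing known for PPAR and RXR pairs, and a DR5 a spacing known for RAR and RXR pairs. Only Bcmo1 and Rarb among the 10 genes had a match.
Bcmo1, chr8:117095615-117095864, plus strand, with the DR1 in capitals: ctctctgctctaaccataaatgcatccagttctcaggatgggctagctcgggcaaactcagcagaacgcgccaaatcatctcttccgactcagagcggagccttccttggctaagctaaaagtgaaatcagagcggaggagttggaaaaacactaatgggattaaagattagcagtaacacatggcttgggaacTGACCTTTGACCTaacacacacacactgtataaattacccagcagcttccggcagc
Rarb, chr14:16575477-16575726, minus strand, with the DR5 in capitals: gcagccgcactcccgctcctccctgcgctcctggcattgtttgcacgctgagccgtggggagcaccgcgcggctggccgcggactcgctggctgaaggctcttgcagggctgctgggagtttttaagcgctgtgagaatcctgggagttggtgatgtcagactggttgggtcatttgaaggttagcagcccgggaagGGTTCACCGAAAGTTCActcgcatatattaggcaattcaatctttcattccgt
The DR1 of Bcmo1 reads on the strand opposite to the gene, at bases -56 to -44 from the start, and the DR5 of Rarb reads on its own strand at bases -53 to -37 from one of its starts. Of the 32851 windows of the same length, 0.222% held a DR1, 0.268% a DR2 and 0.0974% a DR5, and 43.7% held at least 1 hexamer. TAATTA, a core that many homeobox factors bind, was also searched on both strands, and it was in 5.29% of all windows and in those of 0 of the 10 genes. These matches describe letters only, and say nothing of binding in these mice.

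Isx, the intestine-specific homeobox repressor of Bcmo1, lies on the same chromosome at chr8:74873173-74893506. It stood at 88.4, 102 and 81.2 CPM in the ob/ob libraries, against 76.0, 74.5 and 77.8 CPM in the WT libraries. Every ob/ob library was above every WT library, and the WT libraries lay within a narrow band. The log2 fold change was 0.25 ± 0.08 (SE). With scaling to the 6 pan-epithelial markers the value was 0.01 ± 0.08. The median of all genes was then -0.25, against -0.01 under TMM scaling. A change of scaling moves all genes by nearly the same amount. The distance of Isx from that median is thus fixed in advance and does not show whether its difference holds.

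Ratios of reads within a library do not depend on scaling. Bcmo1 had 61.9, 130 and 66.6 reads per 1000 Isx reads in ob/ob, against 200, 357 and 317 in WT. Every ob/ob library was already lower for Bcmo1 and higher for Isx. The groups could therefore not overlap in this ratio, and it adds no support to either gene. Bco2, which cleaves carotenoids off-centre in mitochondria, served as another partner, with 43.9 to 88.9 Bcmo1 reads per 1000 Bco2 reads in ob/ob against 114 to 203 in WT. Other pairs overlapped between the groups. Rara had 25087 to 41909 reads per 1000 Rarb reads in ob/ob against 24571 to 44000 in WT. Aldh1a1 had 11888 to 15311 reads per 1000 Aldh1a7 reads in ob/ob against 10566 to 12205 in WT. Bcmo1, Lrat and Dhrs3 were already lower without overlap and were picked with this contrast known, so their ratios add no support to them. The plot of within-library ratios shows the pair with Isx beside ratios of Lrat to Rbp2 and of Dhrs3 to Retsat.

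**Figure D3:**
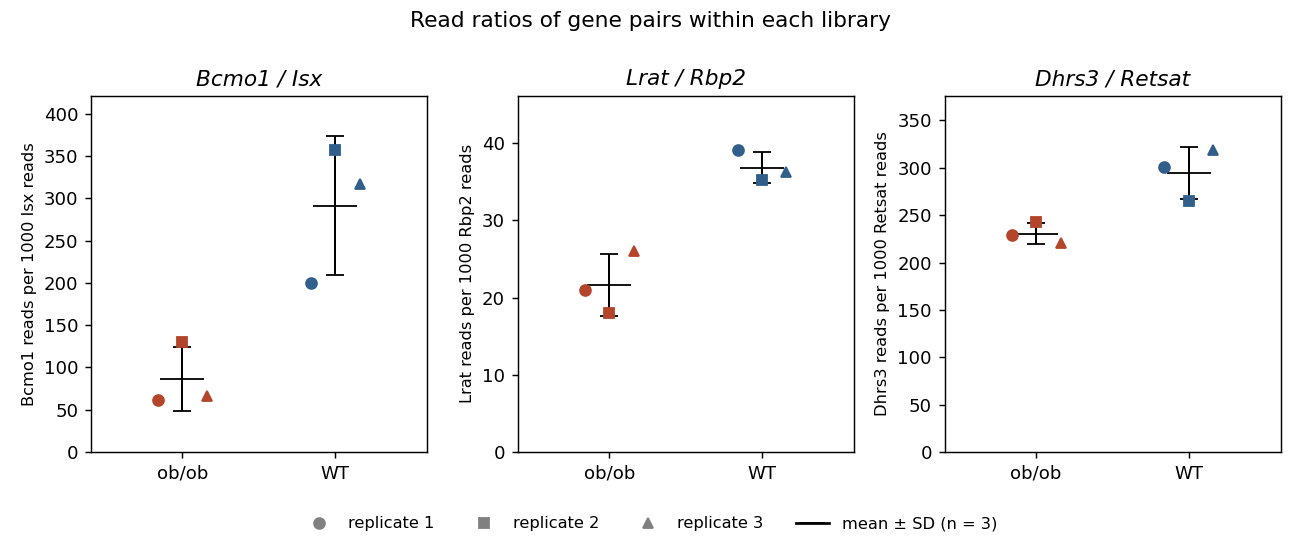
Reads of Bcmo1 per 1000 Isx reads, of Lrat per 1000 Rbp2 reads and of Dhrs3 per 1000 Retsat reads in each library (vertical axes, from 0), for ob/ob (left, red) and WT (right, blue), with mean ± SD (n = 3). In each of the 3 panels every ob/ob library lies below every WT library, which for Bcmo1 and Isx follows from their levels. The levels of Lrat and Dhrs3 were also already lower in ob/ob without overlap.

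The genes of carotenoid entry did not pass the test. Scarb1, the receptor for carotenoids and lipoproteins, was at 6.73 ± 0.593 CPM in ob/ob, against 7.18 ± 1.33 CPM in WT (SD, n = 3 each), with a log2 fold change of -0.09 ± 0.16 (SE). Cd36, which also takes up carotenoids and fatty acids, was at 169 ± 13.3 CPM in ob/ob, against 189 ± 44.5 CPM in WT, a log2 fold change of -0.17 ± 0.14. Bco2 was at 130 ± 16.2 CPM in ob/ob, against 129 ± 5.68 CPM in WT, with a log2 fold change of 0.02 ± 0.09. The adjusted p of edgeR's quasi-likelihood test was 0.744 for Scarb1, 0.496 for Cd36 and 0.919 for Bco2.

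Retinol handling came next in the chain. Rbp2 (chr9:98486115-98509781), the retinol carrier of the enterocyte, was at 1112, 1417 and 1166 CPM in the ob/ob libraries, against 1105, 1239 and 1119 CPM in the WT libraries. The ranges overlapped. Its log2 fold change of 0.09 ± 0.10 (SE) turned to -0.03 with scaling by library size alone, where the median of all genes was -0.13, to -0.15 with pan-epithelial scaling, and to -0.02 without ob/ob library 2.

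Lrat (chr3:82892579-82903973), which makes retinyl esters, was at 23.4, 25.6 and 30.3 CPM in ob/ob, against 43.2, 43.7 and 40.6 CPM in WT. The groups were far apart for the spread within them. The log2 fold change was -0.68 ± 0.09 (SE) and stayed between -0.80 and -0.60 when single libraries were left out. Per 1000 Rbp2 reads there were 18.0 to 26.0 Lrat reads in ob/ob and 35.2 to 39.1 in WT. Retsat (chr6:72598475-72608425), which saturates a double bond of retinol, was at 136, 157 and 141 CPM in ob/ob, against 138, 187 and 135 CPM in WT. These ranges overlapped, and the log2 fold change of -0.08 ± 0.12 turned to 0.09 without WT library 2. Of its 50-base stretches of exon, 14.1% are shared with Gm45053 on the opposite strand, and whether reads were counted by strand is not given.

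Among 8 listed genes of ester synthesis and hydrolysis, 7 were tested and 1 rose. Dgat1, which makes triglyceride and can also esterify retinol, was at 967, 1031 and 952 CPM in ob/ob, against 763, 819 and 838 CPM in WT. It rose by 0.29 ± 0.07 (SE) on the log2 scale in edgeR's quasi-likelihood test (adjusted p = 0.0473), with every ob/ob library above every WT library, and was not past the threshold when any 1 library, or WT libraries 1 and 2 together, were left out or with the DESeq2, upper quartile, library size or pan-epithelial scalings (0.046 ± 0.071 with the last) or the replicate block. Lpl and Ces1f also did not overlap between the groups but missed the threshold, and are named here after their values were seen. The log2 fold change was -2.45 ± 0.77 for Lpl (edgeR's quasi-likelihood adjusted p = 0.0889) and 0.51 ± 0.18 for Ces1f (0.114). Lpl was highest in WT library 2, as the fat cell marker sum was, and the part of fat in it was not tested. Pnlip, the pancreatic lipase gene, had 0 reads in all libraries.

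Retinal can be reduced or oxidised. Dhrs3 (chr4:144892827-144928209), which reduces retinal back to retinol, was at 31.0, 38.1 and 31.1 CPM in ob/ob, against 41.4, 49.5 and 42.9 CPM in WT, without overlap. Its log2 fold change was -0.41 ± 0.10 (SE). There were 220 to 243 Dhrs3 reads per 1000 Retsat reads in ob/ob and 265 to 319 in WT.

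Aldh1a1 (chr19:20492715-20643465), which oxidises retinal to retinoic acid, had the larger values in ob/ob but the groups overlapped. It was at 504, 801 and 593 CPM in ob/ob, against 385, 605 and 430 CPM in WT, and its log2 fold change was 0.42 ± 0.20 (SE), which ran from 0.21 without ob/ob library 2 to 0.63 without WT library 2. Library 2 was the highest in each group, as it was for Rbp2, Retsat, Dhrs3 and Aldh1a7. Aldh1a7, a close relative that shares 3.06% of the 50-base stretches of Aldh1a1, was at 46.4 ± 5.27 CPM in ob/ob, against 40.7 ± 8.46 CPM in WT (SD, n = 3 each), with a log2 fold change of 0.19 ± 0.14. Against Lrat, Aldh1a1 had 19561 to 31349 reads per 1000 in ob/ob and 8901 to 13864 in WT.

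Of the other retinal oxidases and reductases, Aldh1a2 had a log2 fold change of -0.12 ± 0.18 (SE) and Aldh1a3 of 0.11 ± 0.14, with adjusted p of 0.696 and 0.657 in edgeR's quasi-likelihood test, and Rdh10, the main retinol dehydrogenase of the embryo, of -0.03 ± 0.07 (adjusted p = 0.799). Several others had lower values in ob/ob without passing this test, and are named here after their values were seen. Dhrs9, a retinol dehydrogenase, was at 1.45 ± 0.485 CPM in ob/ob, against 2.83 ± 0.306 CPM in WT (SD, n = 3 each), a log2 fold change of -0.96 ± 0.25 (edgeR adjusted p = 0.0601). The aldehyde oxidase Aox1 stood at -0.68 ± 0.21 (edgeR adjusted p = 0.0821), Rdh7 at -0.36 ± 0.11 (0.0922) and Adh4 at -0.55 ± 0.23 (0.178) on the log2 scale, and of these 4 genes only Adh4 overlapped between the groups. Rdh7 passed with DESeq2, the likelihood ratio test, the replicate block and 2 other scalings. Of 19 listed genes of retinol and retinal interconversion, 16 were tested, 1 rose and 0 fell. That gene was Akr1b8, an aldo-keto reductase that reduces retinal among other aldehydes. Akr1b8 was at 11.4, 17.9 and 17.5 CPM in ob/ob, against 7.15, 7.44 and 9.24 CPM in WT. It rose by 0.97 ± 0.18 (SE) on the log2 scale (edgeR's quasi-likelihood adjusted p = 0.0220), in 3 of 3 ob/ob libraries, and missed the threshold when ob/ob library 2, ob/ob library 3, WT library 2 or both WT libraries 1 and 2 were left out.

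At the receptor end, Rara (chr11:98927818-98974942), the most abundant RAR gene here per kilobase, was at 28.3, 33.0 and 34.3 CPM in ob/ob, against 38.7, 42.8 and 39.7 CPM in WT. The groups did not overlap, and the log2 fold change was -0.34 ± 0.08 (SE). Rara was not past the threshold when any single library was left out, nor with DESeq2 size factors or limma-voom. Rarg was at 2.70 ± 0.373 CPM in ob/ob, against 3.47 ± 0.545 CPM in WT (SD, n = 3 each), with a log2 fold change of -0.35 ± 0.19 and an adjusted p of 0.272 in edgeR's quasi-likelihood test. Rxra, the shared partner, was at 200 ± 12.2 CPM in ob/ob, against 218 ± 3.73 CPM in WT, a log2 fold change of -0.12 ± 0.06 with an adjusted p of 0.253 in edgeR's quasi-likelihood test. There were 152 to 169 Rara reads per 1000 Rxra reads in ob/ob, against 181 to 193 in WT. Of the 10 genes, 7 had negative log2 fold changes and 3 had positive ones. The fibroblast and endothelial marker sums given above were also lower in ob/ob, and their part in the values of these genes was not tested.

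Rarb, the receptor gene whose own promoter holds the DR5 printed above, was scarce. It had 11, 14 and 23 reads in the ob/ob libraries, against 28, 18 and 17 reads in the WT libraries. The ranges overlapped, and the log2 fold change was -0.33 ± 0.33 (SE). Of its 50-base exon stretches 34.1% are shared, mostly with Top2b, whose exons cover 1793 bases of Rarb exons on the opposite strand, so part of these reads could belong to Top2b where strand was not counted.

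Cyp26b1 (chr6:84571414-84593908), which breaks down retinoic acid, had 59, 53 and 41 reads in ob/ob, against 88, 57 and 74 reads in WT. In CPM this was 3.63, 3.22 and 2.44 in ob/ob, against 4.95, 3.75 and 3.93 in WT, without overlap. The log2 fold change was -0.45 ± 0.20 (SE). Its relative Cyp26a1 had 0, 3 and 1 reads in ob/ob and 0 in each WT library, which is at or under the floor of 3 reads per library, so no fold is given.

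Over 39 tested genes of the wider pathway, out of 50 listed, 2 rose (Akr1b8 and Dgat1) and 0 fell, and the median log2 fold change was -0.03, against -0.01 over all genes. With scaling by library size alone 1 rose and 4 fell, and with pan-epithelial scaling 1 rose and 14 fell, Akr1b8 being the one that rose in both. At an unadjusted p under 0.05 in edgeR's quasi-likelihood test there were 10. The share of all genes at that unadjusted level was not counted, so nothing is read from the 10. DESeq2 called 4 at its adjusted threshold, against 1059 of all 13168 genes, and edgeR's likelihood ratio test 6, against 1403. Rbp4, the carrier of retinol in blood, was low, with 1.01 ± 0.170 CPM in ob/ob, against 1.78 ± 0.580 CPM in WT (SD, n = 3 each), and a log2 fold change of -0.79 ± 0.29 (SE). Rbp4 was highest in WT library 2, where the fat cell marker sum was highest, and the part of fat in it was not tested. Stra6, the membrane receptor for circulating Rbp4, had 1, 2 and 2 reads in ob/ob against 25, 14 and 3 reads in WT, and was under the filter. Its order over the WT libraries was that of the B cell marker sums, 72.2, 34.1 and 12.1 CPM, against 6.15, 9.90 and 6.12 CPM in ob/ob, and the part of B cells in it was not tested. The plot of fold changes sets the 10 genes beside 38 of these.

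**Figure D4:**
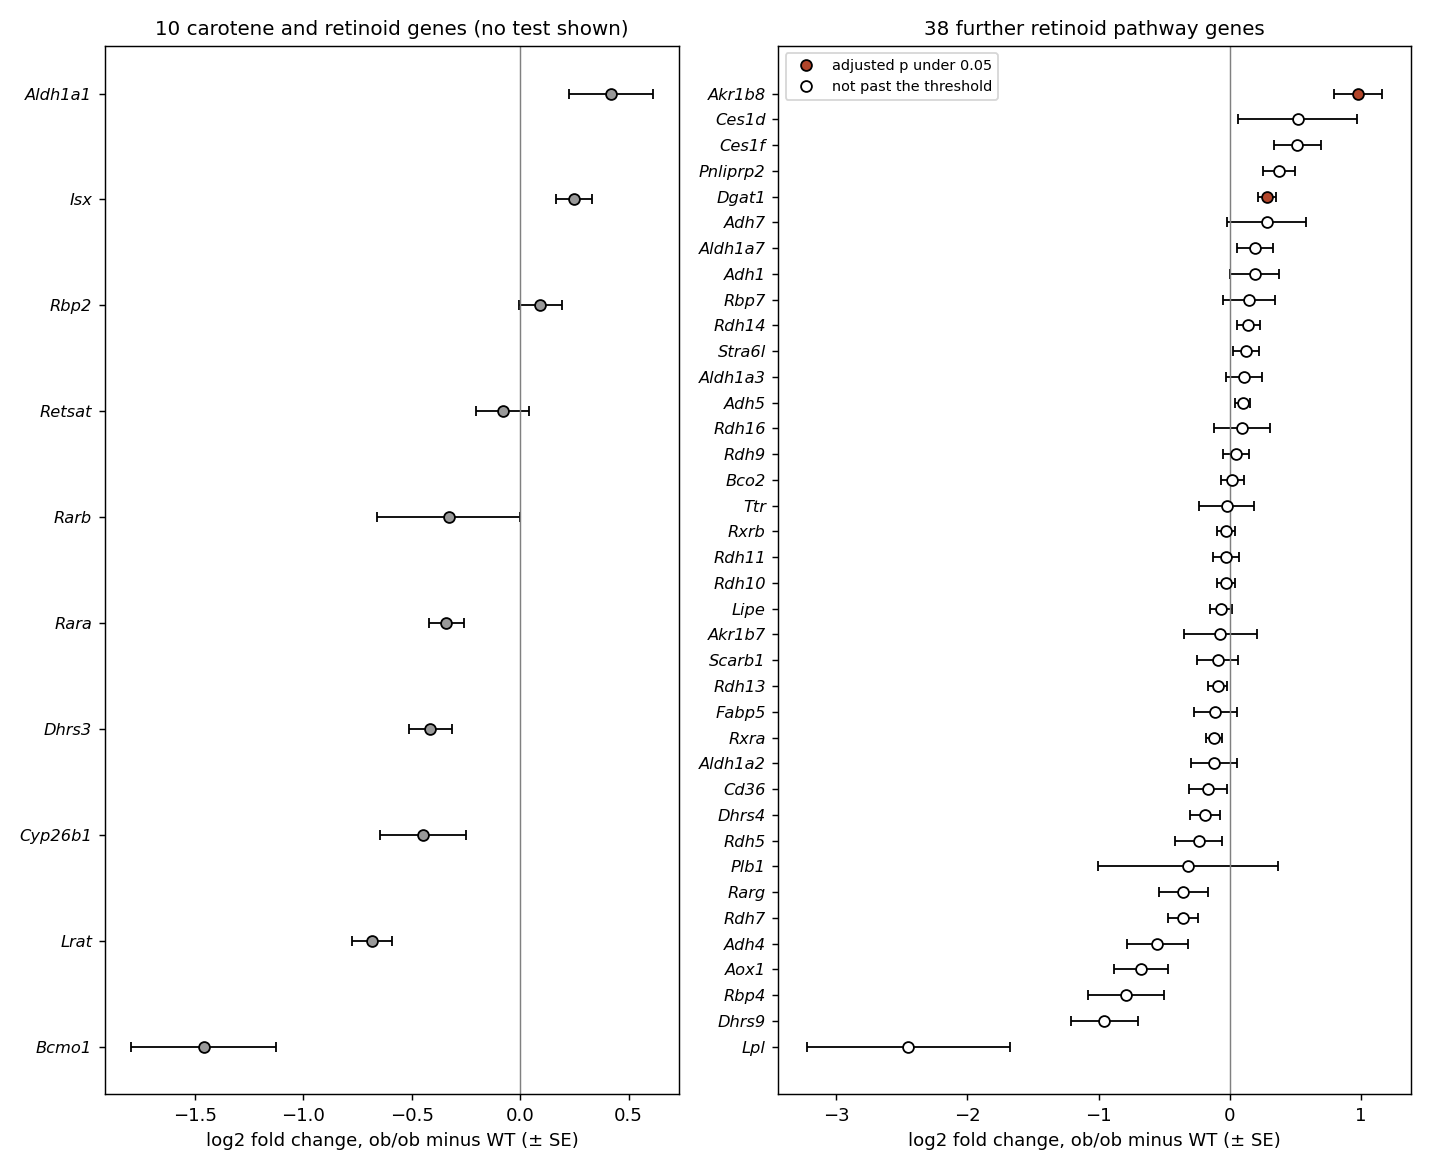
Log2 fold change of ob/ob minus WT (horizontal axis) with its SE for the 10 genes (left, grey, no test shown) and for 38 further tested genes of the retinoid pathway (right), where red points have an adjusted p under 0.05 in edgeR's quasi-likelihood test. Bcmo1 is at -1.46 on the left, and Akr1b8 (0.97) and Dgat1 (0.29) are the 2 red points on the right.

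Genes known to respond to retinoic acid were listed to see whether they moved as well. Of 11 listed 9 were tested, and 0 were past the threshold in edgeR's quasi-likelihood test, in DESeq2 or in limma-voom. Of the 9, 2 had an unadjusted p under 0.05 in edgeR's quasi-likelihood test (Hoxa5 and Hoxb4, both lower in ob/ob). The share of all genes at that unadjusted level was not counted, so nothing is read from these 2. The median log2 fold change of the 9 was -0.09. A p that misses the threshold does not show equal levels.

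Factors that control enterocyte genes were read beside Isx. Cdx2, the master factor of the intestinal epithelium, was at 160, 172 and 173 CPM in ob/ob, against 142, 135 and 123 CPM in WT. It rose by 0.34 ± 0.07 (SE) on the log2 scale (edgeR's quasi-likelihood adjusted p = 0.0292), the only one of 11 factors past the threshold, and missed it when any 1 library other than WT library 1 was left out and with library size or pan-epithelial scaling. Hnf4a had a log2 fold change of 0.13 ± 0.07 (adjusted p = 0.278 in edgeR), Ppara of 0.36 ± 0.17 (adjusted p = 0.222) and Pparg of 0.05 ± 0.13 (adjusted p = 0.844). For Ppara the levels were 160, 203 and 133 CPM in ob/ob, against 101, 154 and 132 CPM in WT, which overlap. The 11 factors had a median log2 fold change of 0.06.

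Patterns over the 6 libraries are given as a description, since the libraries of a group share the difference between the groups. Pearson's r of log2 CPM was 0.97 between Bcmo1 and Dhrs3, 0.95 between Lrat and Rara, 0.91 between Rbp2 and Aldh1a1, -0.85 between Isx and Lrat and -0.40 between Bcmo1 and Isx (n = 6 libraries). Among 10420 genes with a mean of at least 5 CPM, those nearest to Bcmo1 were Gstt2 (r = 0.996), Parm1 (0.994), Sesn1 (0.993), Afmid (0.987) and Adtrp (0.984). Sesn1, for one, was at 96.8, 123 and 101 CPM in ob/ob, against 135, 162 and 158 CPM in WT, highest in library 2 of each group, as Bcmo1 was. Nearest to Isx were Dennd6a (0.994), Golt1a (0.992), Rassf3 (0.990), Ndufb2 (0.988) and Specc1l (0.985).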

How the data were processed

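Per the submitters' processing notes and the methods, the authors aligned reads to mm10 with TopHat2, used HTSeq 0.6p1 to count reads by gene symbol, and ran edgeR 3.4.2. The deposited values used are raw counts. A further 4 deposited tables (the authors' fold changes and p-values, and rescaled or combined values) were not used, nor were 42 columns of values per sample, 12 of them of samples outside the series. Counts were fitted with edgeR 4.0.16 in R 4.3.3 (TMM, genes above 1 CPM in at least 3 libraries, quasi-likelihood test, Benjamini-Hochberg over 13168 genes, threshold 0.05). Fold changes are ob/ob minus WT. In data simulated for this comparison over 13168 genes, 81% of 100 genes changed 1.5-fold and 99% of 100 changed 2-fold were recovered, with 11 false among 191 calls. Changes were planted only in genes averaging 5 CPM or more. These shares therefore say nothing of recovery for scarcer genes such as Rarb, Cyp26b1, Rbp4, Dhrs9 and Aox1. P-values measure the spread between pools of 2 jejuna. DESeq2 1.42.0, limma 3.58.1 and other scalings, filters and left-out libraries were alternatives. The likelihood ratio test of the study is one of these. Exon lengths came from GENCODE M21 and promoters from RefSeq.

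The 10 genes and all lists were chosen with earlier results of these data known. Named genes were the 10, every listed gene past the threshold, a set of named relatives, and for Bcmo1 and Isx the 5 genes of nearest pattern. Other genes named were singled out after their values were seen. The values of 1 listed gene are not reported here, though it stays in the counts and medians of its list.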

Additional observations from a re-analysis of the deposited data

How the results depend on the processing

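Counts of calls moved most. The 746 genes called with TMM (495 higher and 251 lower in ob/ob) became 1736 with scaling by library size alone (331 higher, 1405 lower), 4845 with scaling to the 6 pan-epithelial markers (233 higher, 4612 lower), 858 with upper quartile factors (390 higher, 468 lower), 1403 with the likelihood ratio test and 197 without WT libraries 1 and 2, and ranged from 119 (without ob/ob library 1) to 674 (without WT library 1) with 1 library left out. The pan-epithelial scaling and the fit without WT libraries 1 and 2, in which the lone WT library is assumed to vary like the ob/ob libraries, were chosen after seeing the data. The median of all genes moved from -0.01 to -0.13 with library size and to -0.25 with pan-epithelial scaling.

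Of the 10 retinoid genes, 4 past the threshold became 2 with DESeq2 size factors, 3 with limma-voom (Rara lost), 5 with pan-epithelial scaling (Cyp26b1 added) and 0 without WT libraries 1 and 2, and 1 to 3 with 1 library left out. For the wider pathway, 2 calls (both higher) became 5 with library size (1 higher, 4 lower), 15 with pan-epithelial scaling (1 higher, 14 lower), 4 with DESeq2, 6 with the likelihood ratio test, 1 with DESeq2 size factors, 1 with upper quartile factors, 1 without WT libraries 1 and 2, and 0 to 3 with 1 library left out. For retinoic acid responsive genes, 0 became 1 with library size and 3 with pan-epithelial scaling. For enterocyte factors, 1 became 2 with library size, 3 with pan-epithelial scaling, 0 without WT libraries 1 and 2, and 0 to 1 with 1 library left out. The cause of these shifts was not tested.

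Log2 fold changes near 0 turned sign. With library size they were -0.026 for Rbp2, -0.10 for Bco2, -0.0093 for Aldh1a3 and -0.066 for Pparg. With pan-epithelial scaling they were -0.15 for Rbp2, -0.23 for Bco2, -0.13 for Aldh1a3, -0.055 for Aldh1a7, -0.11 for Hnf4a and -0.19 for Pparg. Bco2 was -0.024 with upper quartile factors and -0.0010 at a mean of at least 5 CPM. Without WT libraries 1 and 2, Retsat was 0.093, Scarb1 0.072 and Pparg -0.048. With 1 library left out, the ranges were -0.022 to 0.16 for Rbp2, -0.17 to 0.085 for Retsat, -0.091 to 0.079 for Bco2, -0.18 to 0.071 for Scarb1, -0.28 to 0.041 for Cd36, -0.077 to 0.013 for Rdh10, -0.26 to 0.040 for Aldh1a2, -0.052 to 0.23 for Aldh1a3 and -0.096 to 0.16 for Pparg.

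Over all genes, libraries of the 2 groups with the same number did not deviate together (correlations of -0.08, 0.07 and -0.02). Such a correlation cannot exclude a pairing that acts on some genes, and library 2 was highest in both groups for several genes above. The SE of Bcmo1 was 0.20 with the number as a block, against 0.34 without it. With a replicate block 736 genes were called, enterocyte factors past the threshold were 2, the retinoid genes were 5, Dgat1 was lost, and Aldh1a1 passed (log2 fold change 0.42 ± 0.07, SE). At 3 reads a library, values under 0.159 to 0.198 CPM are not readable, which covers Cyp26a1 and the ob/ob values of Stra6.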
